A study of Mus musculus with 6 samples.

Results

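The leukocyte homing adhesion molecules examined here were 7 genes, taken by name from the 23557 genes of the deposited table: the selectins Selp and Sele, the immunoglobulin-type molecules Icam1, Icam2 and Vcam1, the selectin ligand gene Selplg, and Cd34. All 7 were present in every tumor and all 7 passed the filter on low values. They were measured by bulk RNA sequencing of subcutaneous tumors of CT26, a murine colon carcinoma line, in BALB/c mice that were 7 weeks old. Each mouse received 500000 cells. H89, an inhibitor of protein kinase A that is known to act on other kinases as well, was given intraperitoneally at 10 mg/kg, 2 times a week from day 6, and control mice received NaCl by the same route. Tumors were taken on day 14, and the comparison set 3 tumors of H89-treated mice against 3 tumors of NaCl mice, each tumor from its own mouse. Both groups carried the same tumor line in the same strain.

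Leukocytes leave the blood in steps. P-selectin and E-selectin on activated endothelium catch passing cells and let them roll, by binding sugars carried on ligands such as PSGL-1, the product of Selplg. Chemokines then switch on leukocyte integrins, and these hold the cell firmly to ICAM-1, ICAM-2 and VCAM-1 before it crosses the vessel wall. P-selectin is also stored in platelets, VCAM-1 and ICAM-1 are also made by stromal cells and others under inflammatory signals, and CD34 is a sialomucin of endothelium, of blood progenitors and of some stromal cells.

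In H89 tumors Vcam1, Icam1 and Selplg lay above the NaCl range and Selp lay below it, whereas Sele, Icam2 and Cd34 overlapped between groups. The edgeR log2 fold change, positive where H89 was higher, was -0.89 (SE 0.23) for Selp and between 0.48 and 0.68 for the 3 genes that lay higher. In edgeR's quasi-likelihood test with Benjamini-Hochberg adjustment over all 13118 genes tested, 0 of the 7 genes had an adjusted p under 0.05, where 1.59% of all genes did (0.861% higher and 0.724% lower). At an unadjusted p under 0.05, 4 of the 7 passed, where 25.0% of all genes did. The 3 H89 values did not overlap the 3 NaCl values for the same 4 genes, where 30.7% of all genes showed this. Of these 4, 3 were above and 1 was below, against 15.2% and 15.5% of all genes. DESeq2's Wald test, run as an alternative, gave an adjusted p under 0.05 for the same 4 genes, where 10.8% of 12984 genes had one. In a bulk sample, fewer cells of a type and less RNA per cell cannot be told apart.

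Total estimated counts lay between 27067349 and 31958793 per tumor, so that 1 count was worth 0.0313 to 0.0369 counts per 1000000 (CPM) before scaling. The CPM values given for genes were also scaled by edgeR's TMM factors. The lowest count behind any value of the 7 genes was 152, for Icam2 in NaCl tumor 1. The 9 markers of colon epithelial carcinoma summed to 19.6 to 32.6 CPM over the 6 tumors. Krt18 had 7.75 to 23.5 CPM, Lgals4 5.59 to 8.12 CPM and Cdh1 1.05 to 2.84 CPM, while Krt7, Krt8 and Krt19 lay between 0 and 2.53 CPM. Vil1 and Cdx2 were at 0.304 CPM or less in all tumors. Epcam was at 0.0912 CPM or less in all but H89 tumor 1, where it was 1.18 CPM. With 3 tumors against 3, the smallest p of the exact two-sided permutation test is 0.1. The p-values measure the spread between these 6 tumors of separate mice, and the labels give no sequencing batch.

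The windows of 250 bases before the RefSeq start of Icam1, Sele and Selp (GRCm38.p6, plus strand) are shown. Icam1 lay above and Selp below the NaCl range, and Sele is the other endothelial selectin. RefSeq windows were at hand for 4 of the 7 genes (these and Cd34). Capitals mark matches, on either strand, to GGG and CC with any 5 bases between them (NF-kappaB kind), TTCNNNGAA (GAS, an interferon-gamma response element) or TGAGTCA (AP-1). The Icam1 window is chr9:21015690-21015939, the Sele window is chr1:164047984-164048233 and the Selp window is chr1:164115014-164115263.
Icam1: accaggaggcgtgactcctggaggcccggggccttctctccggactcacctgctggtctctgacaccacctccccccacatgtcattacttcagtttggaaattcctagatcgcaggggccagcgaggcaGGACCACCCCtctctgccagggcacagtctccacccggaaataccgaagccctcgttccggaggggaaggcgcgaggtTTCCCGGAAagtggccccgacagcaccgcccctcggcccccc
Sele: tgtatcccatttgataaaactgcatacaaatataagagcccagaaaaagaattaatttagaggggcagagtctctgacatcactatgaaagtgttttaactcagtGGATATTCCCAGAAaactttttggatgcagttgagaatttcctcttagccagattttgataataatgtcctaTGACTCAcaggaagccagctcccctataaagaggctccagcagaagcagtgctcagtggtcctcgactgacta
Selp: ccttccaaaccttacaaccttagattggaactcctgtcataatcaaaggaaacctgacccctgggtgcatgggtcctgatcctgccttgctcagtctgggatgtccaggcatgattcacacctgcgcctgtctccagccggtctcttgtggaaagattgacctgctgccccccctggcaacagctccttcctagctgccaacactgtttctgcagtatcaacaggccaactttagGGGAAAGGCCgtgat
The Icam1 window held the NF-kappaB kind on the minus strand from -120 to -111 and GAS from -42 to -34, counted from the last base before the start as -1. The Sele window held the NF-kappaB kind from -145 to -136 and, overlapping it, GAS from -140 to -132, with AP-1 from -73 to -67. The Selp window held only the NF-kappaB kind of the 5 motifs searched, from -15 to -6, and the Cd34 window likewise only that kind, from -30 to -21. Of 32851 windows of the same length, 45.8% held the NF-kappaB kind, 7.02% GAS and 4.46% AP-1. The interferon element of GAAA and GAAA with any 2 bases between them (2.98% of all windows) and the cyclic AMP element TGACGTCA (1.55%), also searched on both strands, had no match in the 4 windows. A match describes letters only and does not show a bound site. The NF-kappaB kind leaves any 5 bases between GGG and CC, so a match need not be a sequence that NF-kappaB binds. The NF-kappaB kind as searched needs GGG, or CCC on the other strand. Stretches without these letters, such as tggaaattcc in the Icam1 window, were not marked, so an unmarked stretch does not show that a site is absent.

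P-selectin, which starts rolling on activated endothelium, had the log2 fold change of largest absolute size among the 7. Selp (chr1:164115264-164150026, plus strand) had 96.0, 78.7 and 92.2 CPM in NaCl tumors 1 to 3 and 30.2, 52.9 and 61.0 CPM in H89 tumors 1 to 3. Each H89 tumor was below each NaCl tumor, and H89 tumor 1 was the lowest. The mean was 89 ± 9.08 CPM (SD, n = 3) in NaCl and 48.1 ± 16.0 CPM (SD, n = 3) in H89 tumors. The log2 fold change of -0.89 had a 95% interval from -1.42 to -0.35, with an edgeR adjusted p of 0.0827 and an exact permutation p of 0.1. Exons of Selp overlap those of Gm16548 and Gm16587 on the other strand, and whether the counting used strand is not given in the sources used here.

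E-selectin, made by cytokine-activated endothelium, lay lower on average but with a wide spread. Sele (chr1:164048234-164057677, plus strand) had 81.5, 102 and 106 CPM in NaCl tumors and 33.2, 74.2 and 99.8 CPM in H89 tumors 1 to 3. H89 tumors 1 and 2 were below the NaCl range, and tumor 3 lay within it. The log2 fold change was -0.48 (SE 0.34, 95% interval from -1.26 to 0.30), with an edgeR adjusted p of 0.406. Without H89 tumor 1 it was -0.15, and without H89 tumor 3 it was -0.84. H89 tumor 1 also had the highest summed level of skeletal muscle markers, 17.9 CPM against 0.767 to 2.12 CPM in the other 5 tumors, and the part of this in the Sele and Selp values was not tested. Without that tumor the log2 fold change of Selp was -0.64 (edgeR adjusted p = 0.0667). Sele and Selp lie near each other on chromosome 1. The within-tumor log2 ratio of Sele to Selp was 0.11 ± 0.31 in NaCl and 0.44 ± 0.29 in H89 tumors (SD, n = 3), a difference with an exact permutation p of 0.3.

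VCAM-1, the endothelial and stromal partner of the integrin VLA-4, lay higher with H89. Vcam1 (chr3:116109949-116129688, minus strand) had 187, 175 and 175 CPM in NaCl tumors and 229, 223 and 296 CPM in H89 tumors 1 to 3. The NaCl tumors were close to each other, and H89 tumor 3 was the highest. The mean was 179 ± 6.98 CPM in NaCl and 249 ± 40.6 CPM in H89 tumors (SD, n = 3). edgeR gave a log2 fold change of 0.48 (SE 0.12, 95% interval from 0.20 to 0.75), with an adjusted p of 0.0813 and an exact permutation p of 0.1.

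ICAM-1, the partner of LFA-1 and Mac-1, showed a difference of similar size at a much lower CPM. Icam1 (chr9:21015985-21028817, plus strand) had 14.7, 16.5 and 12.6 CPM in NaCl tumors and 21.3, 18.6 and 22.9 CPM in H89 tumors 1 to 3. All 3 H89 tumors lay above all NaCl tumors. Its log2 fold change was 0.52 (SE 0.14, 95% interval from 0.20 to 0.84), with an edgeR adjusted p of 0.0861 and an exact permutation p of 0.1. Icam1, Vcam1 and Cd34 each overlap, in exons, an uncharacterised gene on the other strand.

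ICAM-2, which resting endothelium also carries, did not show that difference. Icam2 (chr11:106377656-106388075, minus strand) had 5.47, 7.64 and 8.04 CPM in NaCl tumors and 5.88, 6.84 and 5.81 CPM in H89 tumors 1 to 3. The groups overlapped. Icam2 had a log2 fold change of -0.19 (SE 0.19, 95% interval from -0.62 to 0.24), with an edgeR adjusted p of 0.558. The log2 ratio of Icam1 to Icam2 was 1.01 ± 0.37 in NaCl and 1.68 ± 0.27 in H89 tumors (SD, n = 3) and did not overlap between groups (exact permutation p = 0.1). Of the genes next to Icam1 on chromosome 9, Icam5 had 0.447 to 0.963 CPM over the 6 tumors and Icam4 was too low to be tested.

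PSGL-1, the leukocyte ligand of the selectins, is encoded by Selplg (chr5:113818536-113832644, minus strand). Selplg had 34.5, 28.6 and 19.1 CPM in NaCl tumors and 47.1, 35.8 and 48.8 CPM in H89 tumors 1 to 3. The groups did not overlap, but the gap between NaCl tumor 1 and H89 tumor 2 was narrow. Its log2 fold change was 0.68 (SE 0.21, 95% interval from 0.19 to 1.17), with an edgeR adjusted p of 0.112 and an exact permutation p of 0.1.

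CD34 had the log2 fold change nearest to 0. Cd34 (chr1:194938819-194961279, plus strand) had 939, 916 and 834 CPM in NaCl tumors and 833, 870 and 823 CPM in H89 tumors 1 to 3. The groups overlapped within a narrow range. The log2 fold change was -0.09 (SE 0.09, 95% interval from -0.29 to 0.11), with an edgeR adjusted p of 0.544. It turned to 0.12 under quantile normalization.

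**Figure D1:**
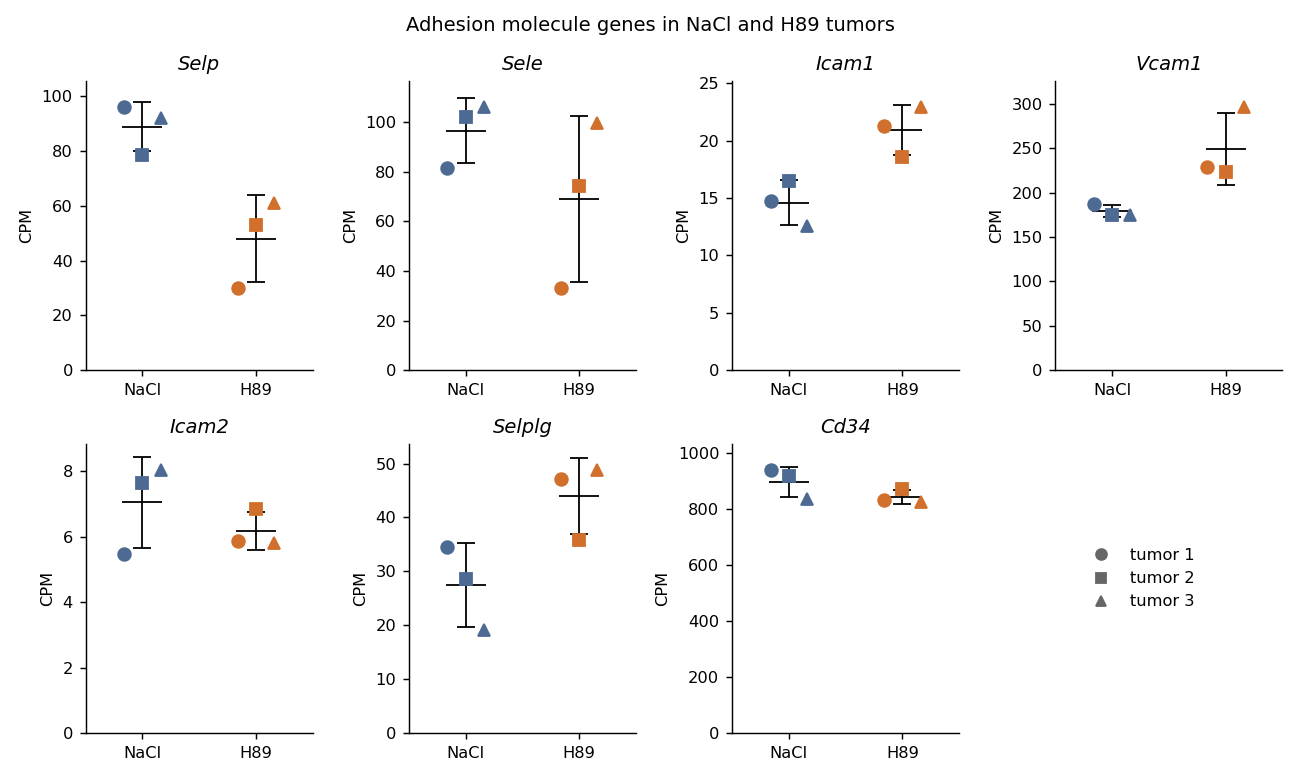
CPM of the 7 genes in each tumor, 1 panel per gene with its own axis from 0, where points are tumors and the black bars are the mean and SD of 3 tumors. Selp lies lower in all 3 H89 tumors, Icam1, Vcam1 and Selplg lie higher in all 3, and Sele, Icam2 and Cd34 overlap.

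**Figure D2:**
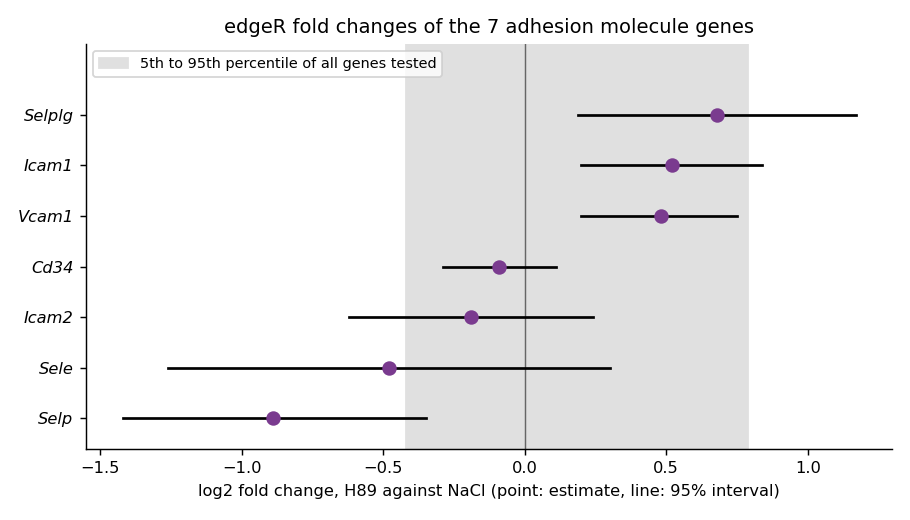
edgeR log2 fold change of H89 against NaCl for each of the 7 genes (point) with its 95% interval (line), over the 5th to 95th percentile of all genes tested (grey band, -0.42 to 0.79). The estimates of Selp and Sele lie outside the band, and the intervals of Sele, Icam2 and Cd34 include 0.

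Levels of different genes were compared per kilobase of merged exons, as CPM per kb. In NaCl tumors Cd34 stood highest at 123 ± 7.54 CPM per kb, followed by Sele at 33.1 ± 4.54 (SD, n = 3). Vcam1 at 20.2 ± 0.786 and Selp at 20.2 ± 2.06 CPM per kb did not differ beyond their spread. Below them came Selplg at 6.41 ± 1.81, Icam2 at 3.70 ± 0.728 and Icam1 at 3.35 ± 0.445 CPM per kb, of which Icam2 and Icam1 did not differ beyond their spread. In H89 tumors the level of Vcam1 was 28.1 ± 4.57 and that of Selp 10.9 ± 3.62 CPM per kb, so that Vcam1 stood clear of Selp. Icam1 at 4.80 ± 0.505 then stood above Icam2 at 3.24 ± 0.302 CPM per kb. The endothelial cadherin gene Cdh5 had 10.8 ± 3.36 CPM per kb in NaCl tumors, between the levels of Selp and Selplg. Pecam1, another endothelial marker, had 6.72 ± 1.1 CPM per kb. Cd34, Sele, Vcam1 and Selp thus stood above both of these endothelial genes in NaCl tumors, and the cells that made their RNA were not identified. Per kb of the longest transcript instead, the order changed: Vcam1 at 52.4 then stood above Sele at 28.4 and Selp at 19.9 CPM per kb as means over the 6 tumors.

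Ratios within a tumor hardly depend on the library's depth or scaling factor. All 21 pairs of the 7 genes were compared, a set chosen after the values had been seen, and 11 did not overlap between groups (exact permutation p = 0.1 each, adjusted over the 21 pairs 0.19), where 29.7% of all pairs of genes tested did not. The 21 ratios share genes, and 4 of the 7 genes already did not overlap in opposite directions, so that this count adds no support to theirs. The log2 ratio of Vcam1 to Selp was 0.96, 1.15 and 0.92 in NaCl tumors and 2.90, 2.07 and 2.27 in H89 tumors 1 to 3. The difference between group means was 1.40 on the log2 scale. For Icam1 to Selp it was 1.45 and for Selplg to Selp 1.64. Selplg, Icam1 and Vcam1 also stood higher against Sele without overlap, by 1.31, 1.12 and 1.07. By contrast, Icam1 to Vcam1 was -3.58 ± 0.19 in NaCl and -3.54 ± 0.14 in H89 tumors (SD, n = 3; exact permutation p = 0.8).

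**Figure D3:**
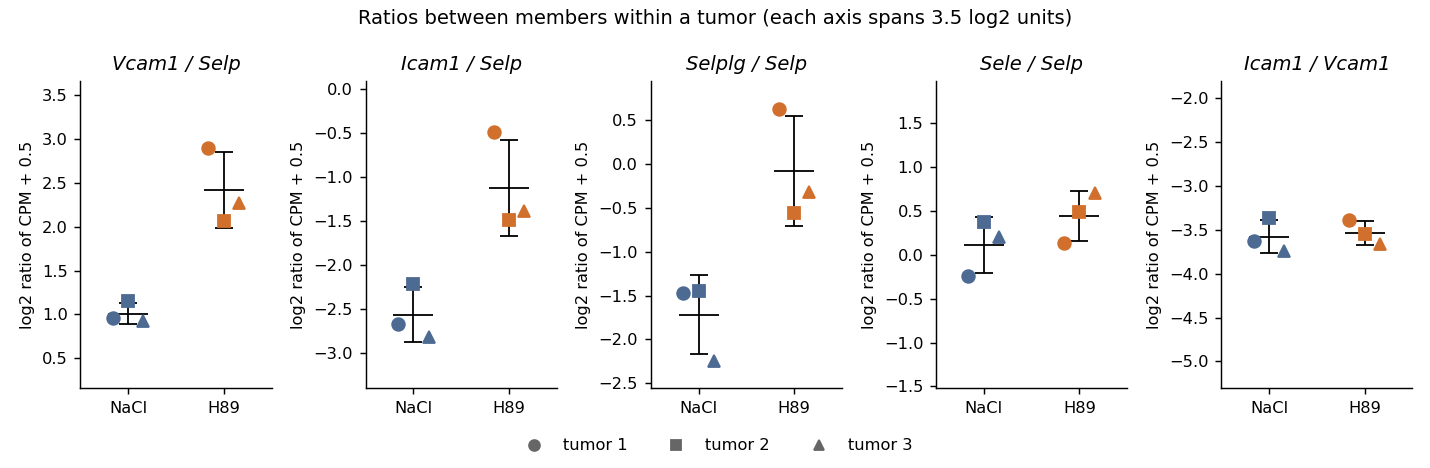
Log2 ratio of CPM + 0.5 between pairs of the 7 genes in each tumor, where points are tumors, black bars are the mean and SD of 3 tumors, and all axes span the same number of log2 units. Vcam1, Icam1 and Selplg against Selp lie higher in all 3 H89 tumors, and Sele against Selp and Icam1 against Vcam1 overlap.

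Profiles over the 6 tumors were compared by the root mean square difference of mean-centred log2(CPM + 0.5), as a description. Vcam1 was nearest to Fyb (0.034) and Tent5a (0.036), and Icam1 to Fam227a (0.045) and Pcdhgc4 (0.049). Between Icam1 and Vcam1 the difference was 0.137, less than between either and any other of the 7. Of the 13117 genes compared, however, 179 lay nearer to Icam1 than Vcam1 did, and 215 nearer to Vcam1 than Icam1 did. Selp was nearest to Ptpn22 (0.115) and Sele to Sema6d (0.148), and between Selp and Sele the difference was 0.295. Here 79 genes lay nearer to Selp than Sele did, and 45 nearer to Sele than Selp did. Selplg was nearest to Tnfrsf18 (0.059), Icam2 to Mtmr10 (0.040) and Cd34 to Pold1 (0.022). Cd34 itself varied little, with a root mean square of 0.072 around its mean. Each gene named as nearest is the closest of 13117, and many others can lie almost as close.

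Endothelial cells can carry most of these molecules, but which cells made their RNA in these tumors was not tested. All 20 endothelial markers were tested. Their summed level was 357 to 449 CPM in NaCl and 322 to 394 CPM in H89 tumors, with a median log2 fold change of -0.27, and none was at 0. Of the 20, 0 had an edgeR adjusted p under 0.05, and 4 (Esam, Cldn5, Egfl7 and Plvap) were lower at an unadjusted p under 0.05, where 11.9% of all genes were. Set against the mean log2 level of the 20 markers in the same tumor, all 7 genes overlapped between groups. The difference was then -0.74 for Selp, -0.41 for Sele, 0.66 for Vcam1 and 0.71 for Icam1 on the log2 scale, with exact permutation p-values of 0.2 to 0.5. The part of endothelial content in these results was not tested further.

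Some platelet markers lay lower beside Selp. Of 11 platelet markers, 5 passed the filter. Of these 5, 0 had an edgeR adjusted p under 0.05, and 2 (Pf4 and Ppbp) were lower at an unadjusted p under 0.05, where 11.9% of all genes were. The summed level of the list was 31.9 to 49.8 CPM in NaCl and 22.3 to 27.2 CPM in H89 tumors. Most of that sum was Pf4, a chemokine of platelet granules that macrophages can also make, with 31.7, 19.1 and 25.3 CPM in NaCl and 10.5, 15.0 and 9.15 CPM in H89 tumors 1 to 3. Pf4 had a log2 fold change of -1.14 (SE 0.24) and an edgeR adjusted p of 0.0593. Ppbp had 0.932 to 1.80 CPM in NaCl and 0.606 to 0.821 CPM in H89 tumors. Its log2 fold change was -1.02, with an edgeR adjusted p of 0.116. Of the receptor genes, Gp1ba had -0.47, Itga2b -0.07 and Gp1bb 0.04 on the log2 scale. Gp9, too low to be tested, had 0.298 to 0.439 CPM in NaCl and 0.122 to 0.274 CPM in H89 tumors. Gp6 and Tubb1 were at or near 0 in all tumors. The part of platelets in the Selp result was not tested.

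Selplg is a leukocyte gene, and several leukocyte markers lay higher beside it. The 11 pan-leukocyte markers summed to 1047 to 1158 CPM in NaCl and 986 to 1335 CPM in H89 tumors, with a median log2 fold change of 0.33. Most of that sum was Arhgdib, Laptm5 and Lcp1, with means of 349, 248 and 200 CPM in NaCl tumors, against 28.8 CPM for Ptprc. Lcp1 had a log2 fold change of 0.10. At an unadjusted p under 0.05, 5 of the 11 were higher and 1 was lower, where 13.1% and 11.9% of all genes were. Ptprc, the gene of CD45, had the highest log2 fold change of the list, 1.01 (SE 0.21, edgeR adjusted p = 0.0547), and Arhgdib the lowest, -0.31 (edgeR adjusted p = 0.0952), while Laptm5 was at -0.03 and Cd53 at 0.05. Relative to the mean log2 level of these 11 markers, Selplg was -1.03 ± 0.38 in NaCl and -0.68 ± 0.13 in H89 tumors (SD, n = 3), which overlapped (exact permutation p = 0.3). The 8 T cell markers summed to 16.4 to 36.0 CPM in NaCl and 30.8 to 77.6 CPM in H89 tumors, with a median log2 fold change of 1.24. Fibroblast markers, which bear on Vcam1, summed to 2589 to 2810 CPM and 2889 to 3685 CPM. Their part in the results was not tested.

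**Figure D4:**
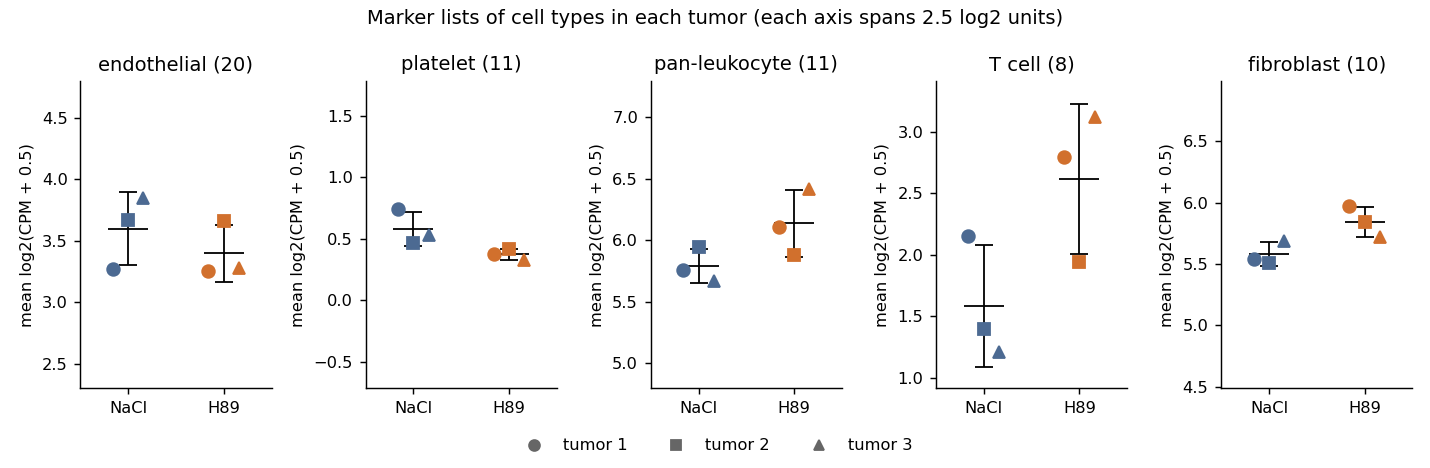
Mean log2(CPM + 0.5) of the marker genes of 5 cell types in each tumor (number of markers in the panel title), where points are tumors and black bars are the mean and SD of 3 tumors. The endothelial, pan-leukocyte and T cell lists overlap between groups, the platelet list lies lower and the fibroblast list higher in all 3 H89 tumors.

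The integrins that bind these molecules lay partly higher. Of 8 leukocyte integrin genes tested, 0 had an edgeR adjusted p under 0.05, 4 were higher and 1 lower at an unadjusted p under 0.05 (13.1% and 11.9% of all genes), and the median log2 fold change was 0.68, beside 0.004 over all genes. Itga4, the VLA-4 subunit that binds VCAM-1, had 15.5, 22.4 and 18.2 CPM in NaCl and 27.9, 27.0 and 35.4 CPM in H89 tumors 1 to 3. Its log2 fold change was 0.69 (SE 0.16), with an edgeR adjusted p of 0.0729. Itgb2, the shared chain of LFA-1 and Mac-1 that binds ICAM-1, had 53.7, 50.5 and 36.5 CPM in NaCl and 63.2, 65.3 and 94.2 CPM in H89 tumors 1 to 3. Its log2 fold change was 0.66 (SE 0.19), with an edgeR adjusted p of 0.10. Of the 6 integrin genes named in this paragraph, 2 (Itgb2 and Itga4) lay above the NaCl range in all 3 H89 tumors and 0 lay below it. Of all genes, 15.2% lay above and 15.5% below. Itgal, the LFA-1 chain, was highest in H89 tumor 3 at 55.5 CPM and overlapped between groups, and its log2 fold change of 1.00 (SE 0.38) had an edgeR adjusted p of 0.161. Itgam, the Mac-1 chain, had 28.4, 39.4 and 48.0 CPM in NaCl and 17.4, 72.5 and 135 CPM in H89 tumors 1 to 3, which overlapped (log2 fold change 0.96, SE 0.59, edgeR adjusted p = 0.346). Itgb1, the broadly expressed partner of Itga4, had a log2 fold change of -0.06 and Itgb7 one of -0.33 (edgeR adjusted p of 0.740 and 0.173).

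Enzymes that build the sugars of selectin ligands came next. Of 12 tested, 0 had an edgeR adjusted p under 0.05, 2 were higher at an unadjusted p under 0.05 (13.1% of all genes), and the median log2 fold change was 0.03. Gcnt1, which makes the core branch of PSGL-1 sugars, had a log2 fold change of 0.41 (SE 0.11) and an edgeR adjusted p of 0.0821, and St3gal4, a sialyltransferase, had -0.20 (edgeR adjusted p = 0.289). Of 6 mucin-type and other ligand genes tested, 0 passed with adjustment, and the median was -0.22, with Cd24a at 0.95 and Spn at -0.22 (edgeR adjusted p of 0.207 and 0.182). Glycam1 was at 0 in all 6 tumors and Madcam1 near 0, both known as ligands of lymph node and gut vessels. Of 10 other immunoglobulin-type and transmigration genes, 0 passed with adjustment, and Jam2 at 0.64 and Esam at -0.53 lay in opposite directions. Integrin activation and docking structure genes, 7 tested in each, had medians of 0.23 and -0.07, and 0 of them passed with adjustment. Apbb1ip was at 0.23 and Tln1 at -0.15 in the former, Trio at 0.35 and Ezr at -0.21 in the latter.

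The genes of ICAM-1, VCAM-1 and the selectins are known to respond to NF-kappaB, and those of ICAM-1 and VCAM-1 also to interferon-gamma. Of 16 NF-kappaB inputs and targets, 1 was higher and 0 were lower in edgeR's test with adjustment, where 0.861% and 0.724% of all genes were. At an unadjusted p under 0.05, 2 were higher and 3 lower (13.1% and 11.9% of all genes). The median log2 fold change was -0.13. The 1 gene higher with adjustment was Birc3, an inhibitor of cell death, with 13.2, 16.0 and 13.1 CPM in NaCl and 20.7, 22.9 and 26.7 CPM in H89 tumors 1 to 3 (log2 fold change 0.74, SE 0.14, edgeR adjusted p = 0.0488). The call for Birc3 was lost with any 1 tumor left out, at edgeR adjusted p-values of 0.0667 to 0.152, and under quantile normalization in limma (0.0731), the replicate block (0.071) and library totals (0.0545). Tnfaip2 lay on the other side, with a log2 fold change of -0.68 and an edgeR adjusted p of 0.0523. The 9 interferon-gamma genes tested all had log2 fold changes above 0, with a median of 1.01, but 0 had an edgeR adjusted p under 0.05. At an unadjusted p under 0.05, 4 of them were higher and 0 lower (13.1% and 11.9% of all genes). Their summed level was 258 to 844 CPM in NaCl and 693 to 1476 CPM in H89 tumors, which overlapped. NaCl tumor 3 had the lowest sum, 258 CPM, against 844 and 691 CPM in NaCl tumors 1 and 2. The H89 minus NaCl difference of the list's mean log2 level was 1.09, and 0.57 without NaCl tumor 3. Irf1 had a log2 fold change of 0.92 and an edgeR adjusted p of 0.106.

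**Figure D5:**
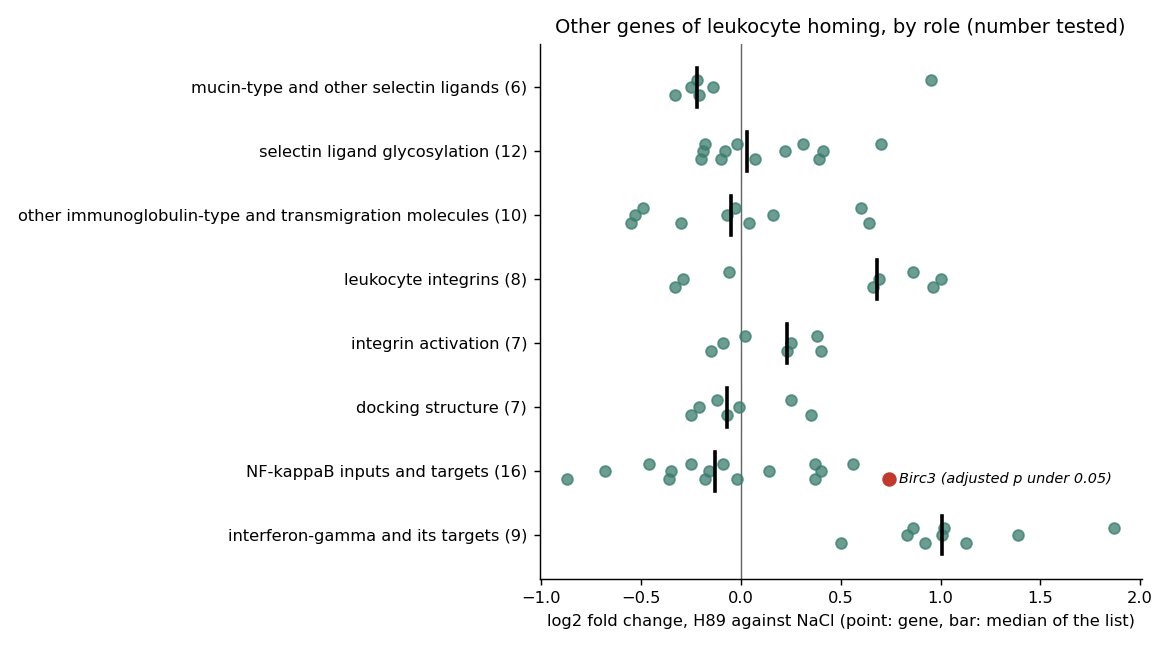
edgeR log2 fold change of H89 against NaCl for each tested gene of 8 lists of leukocyte homing genes (points, with the number tested in parentheses) and the median of each list (bar). The leukocyte integrin and interferon-gamma medians lie at 0.68 and 1.01, the others between -0.22 and 0.23, and the red point is Birc3, with the only adjusted p under 0.05.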

How the data were processed

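RNA of 6 CT26 tumors was sequenced on the BGISEQ-500 platform. The authors deposited 1 table of 6 tumors by 23557 genes, and its values are estimated counts, although the table is named for TPM: each tumor summed to between 27067349 and 31958793 instead of 1000000. The submitters' processing notes name kallisto, DESeq2 and GRCm38, without versions or roles. Of the gene columns, 194 were recorded by name and 23363 more were treated alike. Groups came from the labels, and age and treatment start from the study's methods.

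Estimated counts were rounded, genes with a mean of at least 0.5 CPM (13118) were kept, and H89 was compared with NaCl by edgeR 4.0.16 (TMM, glmQLFit, glmQLFTest, R 4.3.3), with treatment as the only term. The study's own tool, DESeq2 (1.42.0), limma 3.58.1 and other settings were alternatives. Permutation tests were exact and two-sided, over 10 splits. For a single gene they compared mean log2(CPM + 0.5). On simulated counts of 13018 genes, edgeR recovered 70.4% of genes changed by 1 and 96.9% of those changed by 2 on the log2 scale.

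Genes named were, for each pathway list, those with the smallest p in each direction, with all members, their counter-receptors, and the nearest profiles. Other genes were named after their values were seen. The members, gene lists and tests were chosen with earlier results of these data known. Positions and exon lengths are those of GENCODE M21 (GRCm38), by symbol. Markers of macrophages, mast cells, neutrophils, keratinocytes, skeletal muscle, adipocytes and colon epithelial carcinoma were also summed. Some genes are not reported here.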

Additional observations from a re-analysis of the deposited data

How the results depend on the processing

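The log2 fold changes of Selp, Sele, Icam1, Icam2, Vcam1 and Selplg kept their direction under all 15 alternatives run for each, between -1.10 and -0.64 for Selp, 0.33 and 0.56 for Vcam1, 0.42 and 0.62 for Icam1, and 0.48 and 0.88 for Selplg. Cd34 kept it under 14 and was 0.12 under quantile normalization. With DESeq2 the adjusted p was under 0.05 for Icam1 (0.50, DESeq2 adjusted p = 0.0247), Vcam1 (0.46, 0.0119), Selp (-0.90, 0.00176) and Selplg (0.66, 0.0246). The cause was not tested. Over all genes, 208 had an edgeR adjusted p under 0.05 (113 higher, 95 lower). There were 80 under quantile normalization with limma (55 higher, 25 lower), 1406 with DESeq2 (642 higher, 764 lower), and 164 by library totals without TMM (131 higher, 33 lower). Library totals were a setting added after seeing the data that moved the median log2 fold change to 0.075. With Bonferroni correction of edgeR's p-values and an absolute log2 fold change above 1, 0 genes passed. The study used that correction and fold change with DESeq2, so its own gene count is not directly comparable with this one. Leaving out 1 tumor at a time gave 0 to 12 genes, with 2401 to 3440 at an unadjusted p under 0.05. The labels do not say whether equal tumor numbers pair the samples. Deviations of same-numbered tumors correlated at 0.163, 0.061 and -0.025, and not every tumor correlated best with its own number, which cannot settle it with 3 tumors per group. With the replicate number as a block, 0 genes passed in edgeR, with 3750 at an unadjusted p under 0.05, and Selp was at -0.94 and Vcam1 at 0.46. Of the other genes named, Itgb1 turned to 0.01 by library totals and 0.13 under quantile normalization, and lay between -0.11 and 0.01 with single tumors left out, at 0.00 without the third NaCl tumor. Tln1 turned to 0.04 under quantile normalization. Per kb of the longest transcript instead of merged exons, the mean over 6 tumors went from 4.08 to 7.01 CPM per kb for Icam1, 3.47 to 5.16 for Icam2, 24.2 to 52.4 for Vcam1, 15.5 to 19.9 for Selp, 8.34 to 15.4 for Selplg and 119 to 284 for Cd34, since the annotated exons are longer than any 1 transcript. Icam4, Madcam1 and Glycam1 were below the filter and were not tested.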

Other observations

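Other marker lists gave these summed levels. Macrophage markers lay between 1187 and 1972 CPM in NaCl and between 1586 and 1867 CPM in H89 tumors, and mast cell markers between 78.8 and 215 CPM and between 82.4 and 132 CPM. Neutrophil markers lay between 16.2 and 20.5 CPM and between 20.3 and 34.5 CPM, with Ly6g at 0 in all tumors; the list's median log2 fold change was -0.20, with Csf3r at 0.90, S100a8 at -0.85 and S100a9 at -0.70. Adipocyte markers lay between 11.2 and 35.0 CPM and between 12.8 and 25.8 CPM. Keratinocyte markers lay between 45.9 and 73.1 CPM in NaCl and between 14.0 and 17.9 CPM in H89 tumors. Most of that sum was 1 gene, Cdsn, with 43.1, 51.1 and 69.7 CPM in NaCl and 14.3, 10.3 and 12.4 CPM in H89 tumors 1 to 3 (log2 fold change -2.15, edgeR adjusted p = 0.0288). Krt10 was at 0.31 on the log2 scale, and Krt5, Krt14, Krt1, Lor, Ivl and Dsg1a were at or near 0 in all tumors. Skeletal muscle markers lay between 0.767 and 2.12 CPM in NaCl and between 0.973 and 17.9 CPM in H89 tumors, with the highest value in H89 tumor 1, the tumor with the lowest Selp and Sele. Markers of colon epithelial carcinoma lay between 21.1 and 32.6 CPM and between 19.6 and 23.8 CPM, and Krt18 (log2 fold change -1.04) lowered the sum in H89 tumors, while 5 of the 6 tested markers were above 0 on the log2 scale, with a median of 0.64. The part of these cell types in the results was not tested.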
